A study of Mus musculus with 24 samples.

Results

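Zfp189 encodes a zinc finger protein of the Krüppel-associated box (KRAB) family. Proteins of this family bind DNA through arrays of zinc fingers and recruit the corepressor TRIM28 (KAP1), which brings histone methyltransferases and heterochromatin proteins to silence the bound region. In mouse brain Zfp189 is known from work on prefrontal cortex, where it acts as a regulator of a network linked to stress resilience and is a target of the transcription factor CREB. The gene was picked from 19505 named genes on the array by its symbol, after it had been seen to be lower in the occluded hemisphere than in the opposite one. That contrast is therefore described here without a test. A single probe set, TC0400000552.mm.2, carried the symbol.

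Each brain gave 2 samples, 1 per hemisphere, and the 12 animals were C57Bl/6j males of 8 to 10 weeks. Occlusion of the middle cerebral artery from inside the vessel (MCAO, a model of ischaemic stroke) lasted 90 min in 8 of them. Flow was then restored for 30 min (reperfusion), and the brains were taken 2 h after the start of occlusion. The other 4 mice had sham surgery, and no times are given here for them. The hemisphere on the operated side (ipsilateral) and the opposite one (contralateral) were hybridised separately, giving 8 MCAO ipsilateral, 8 MCAO contralateral, 4 sham ipsilateral and 4 sham contralateral arrays. All 4 groups were perfused with saline before the hemispheres were frozen. Whole hemispheres were used, so that tissue inside and outside the territory of the artery was mixed. Values are log2 probe-set signals, and the number of arrays limits their precision.

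Both arrays of MCAO mouse 3 and both of sham mouse 1 stood apart. These 4 had a median correlation of 0.328 to 0.55 to the other 20, which reached 0.981 to 0.989 among themselves. The background of an array was set at the 95th percentile of its negative controls. It was 7.41 to 7.61 log2 units on those 4 arrays, against 5.17 to 5.74 on the 20. Results are given with and without the 4. Among markers of brain cell types, those above background on the 20 arrays were 9 of 9 for neurons, 7 of 7 for astrocytes, 6 of 6 for oligodendrocytes, 5 of 6 for endothelium and 3 of 6 for microglia. They were 0 of 5 for choroid plexus, 0 of 5 for neutrophils and monocytes and 0 of 1 for erythroid cells.

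Zfp189 lies on chromosome 4 of the mouse assembly GRCm38.p6, at chr4:49521176-49531558, on the plus strand. It starts next to Mrpl50, a gene of the large subunit of the mitochondrial ribosome, which is read in the opposite direction and ends its annotated span at base 49521083. The 92 bases that separate them, from RefSeq (chr4:49521084-49521175, plus strand), are shown because any promoter sequence there faces both genes. Capitals mark a CCAAT box, the letters that the factor NF-Y binds, and TGACG, the shortened form of the CREB response element TGACGTCA.
Zfp189 upstream: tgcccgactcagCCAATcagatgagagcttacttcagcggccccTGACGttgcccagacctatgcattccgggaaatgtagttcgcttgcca

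On both strands of the 300-base window around the start, CCAAT occurred 1 time, with its first base 80 bases before the start. TGACG also occurred 1 time, beginning 48 bases before it. The full element TGACGTCA occurred 0 times. Among 32851 RefSeq promoter windows of that length, 37.4% held CCAAT, 20.8% held TGACG and 1.79% held TGACGTCA on either strand. The motifs do not overlap in the stretch shown, and a match describes these letters only.

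The Zfp189 signal was lowest in the ipsilateral hemispheres of MCAO mice. Those of mice 1, 2 and 4 were at 5.27, 5.38 and 5.63 log2 units, those of mice 5, 6, 7 and 8 at 4.53, 4.37, 5.34 and 4.92, and that of mouse 3, on an array that stood apart, at 7.08. The contralateral hemispheres of MCAO mice 1, 2 and 4 were at 5.83, 5.72 and 5.87, those of mice 5, 6, 7 and 8 at 5.49, 5.29, 5.98 and 5.90, and that of mouse 3 at 6.96. Mice 5 and 6 were thus the lowest of the 7 on both sides.

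In sham mice the ipsilateral hemispheres of mice 2, 3 and 4 were at 5.94, 5.70 and 5.58, and that of mouse 1, which stood apart, at 6.19. Their contralateral hemispheres were at 6.19, 6.20 and 5.82 for mice 2, 3 and 4, and at 6.93 for mouse 1. All sham values of the 20 arrays were at or above 5.58, a level that 1 of the 7 MCAO ipsilateral hemispheres exceeded.

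The signal was close to background throughout. Averaged over the 20 arrays it was 5.55, above that of 60.2% of all probe sets, while the mean background was 5.49. It exceeded the background of its own array in 2 of 7 MCAO ipsilateral, 5 of 7 MCAO contralateral, 3 of 3 sham ipsilateral and 3 of 3 sham contralateral hemispheres. On the 4 arrays that stood apart it was below background in all. Differences that involve the MCAO ipsilateral group are therefore between a group that is mostly not above background and groups that mostly are, and the folds below are those of the measured signals. Background itself ranged over 5.23 to 5.63 in the MCAO ipsilateral group, 5.17 to 5.74 in the MCAO contralateral, 5.45 to 5.71 in the sham ipsilateral and 5.53 to 5.66 in the sham contralateral group.

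**Figure D1:**
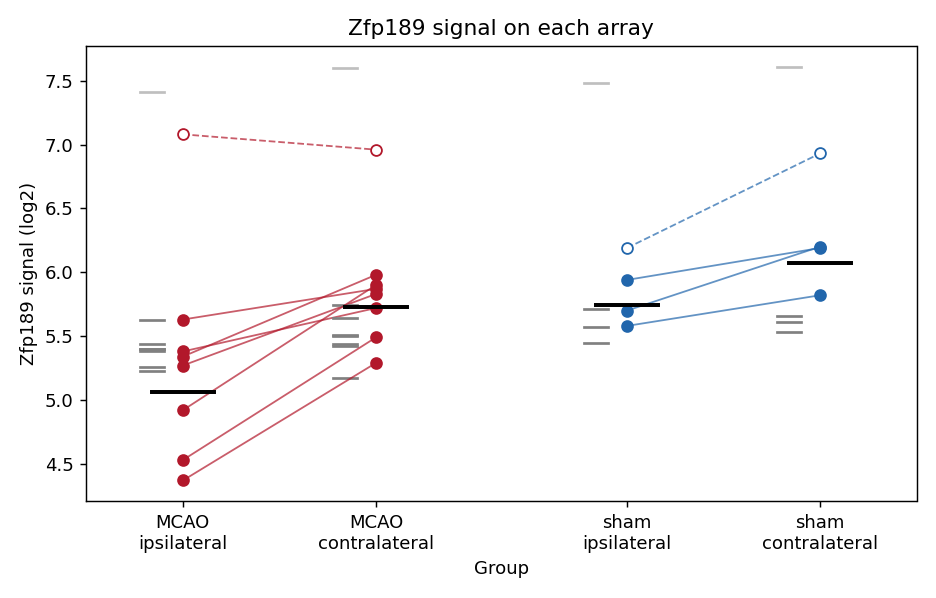
Zfp189 signal (log2, vertical axis) on each of the 24 arrays by group, with lines joining the hemispheres of 1 mouse. Black bars are means of the 20 arrays (5.06, 5.73, 5.74 and 6.07 from left to right), open symbols and dashed lines are the 2 mice whose arrays stood apart, and grey ticks are each array's background. Most MCAO ipsilateral points lie below the background of their array.

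Group means over the 20 arrays were 5.06 ± 0.47 in MCAO ipsilateral (SD, n = 7), 5.73 ± 0.25 in MCAO contralateral (SD, n = 7), 5.74 ± 0.18 in sham ipsilateral (SD, n = 3) and 6.07 ± 0.22 in sham contralateral hemispheres (SD, n = 3). In that order, the MCAO ipsilateral and contralateral means were 0.66 apart, more than the larger SD of 0.47. The MCAO contralateral and sham ipsilateral means were 0.02 apart, within the larger SD of 0.25, and these groups cannot be ordered. The sham ipsilateral and contralateral means were 0.33 apart, with a larger SD of 0.22. Each of these neighbouring pairs overlapped in range. With all 24 arrays the means were 5.32 ± 0.83 (SD, n = 8), 5.88 ± 0.49 (SD, n = 8), 5.85 ± 0.27 (SD, n = 4) and 6.29 ± 0.46 (SD, n = 4), and no neighbours in the order were further apart than the larger SD.

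Within MCAO mice, 7 of 8 animals had the lower Zfp189 signal on the side of the occlusion. The ipsilateral minus contralateral difference was -0.55, -0.33, 0.12, -0.24, -0.96, -0.92, -0.65 and -0.98 log2 units in mice 1 to 8. Mouse 3, whose arrays stood apart, was the 1 animal with a positive value. The mean was -0.56 ± 0.39 (SD, n = 8) on all arrays, or 0.68 of the contralateral signal, and -0.66 ± 0.30 (SD, n = 7) without mouse 3, or 0.63 of it. In hemisphere RNA, fewer cells of a type and less RNA per cell cannot be told apart.

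Ranked over 22206 probe sets, the mean over the 8 MCAO mice was the 38th most negative. It was the 4th among the 9014 probe sets whose mean level on the 20 arrays was above background. Without mouse 3 it was the 6th and the 2nd. Over all 24 arrays the mean level of Zfp189 was not above the mean background. These ranks restate the contrast by which the gene was chosen. For that contrast limma, a linear model with moderated variances fitted here with each mouse as a block, called 0.0856% of probe sets at an adjusted p under 0.05 on all arrays, none of them lower, and 0.135% on the 20, where 0.126% were higher and 0.00901% lower.

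The sham mice were not part of the contrast that chose the gene, and they too had less Zfp189 signal on the operated side. The difference was -0.74, -0.25, -0.50 and -0.24 in sham mice 1 to 4, lower in 4 of 4, with a mean of -0.43 ± 0.24 (SD, n = 4), or 0.74 of the contralateral signal. Over all probe sets, 6.35% were lower on the operated side in all 4 sham mice. The limma model was fitted to MCAO and sham mice together, so the MCAO arrays enter the SE and p of the sham difference. Those arrays were used in the choice of the gene, so this p is not a separate check of the sham difference. In limma the sham difference was -0.43 ± 0.19 (SE) with an unadjusted p of 0.0406 and an adjusted p of 0.71 over all probe sets, so that it did not pass. Without sham mouse 1 and MCAO mouse 3 it was -0.33 ± 0.16 (SE, limma adjusted p = 0.94) and lower in 3 of 3 mice, as were 12.5% of all probe sets. The share of probe sets called in the sham contrast was 0.0% on either set of arrays, with 1390 and 1220 at an unadjusted p under 0.05.

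The gene was picked as lower after occlusion, and a side difference of the same sign was also measured after sham surgery. The side difference in MCAO minus that in sham mice was -0.13 ± 0.24 (SE) on all arrays and -0.33 ± 0.19 (SE) on the 20. It holds the contrast that chose the gene and was not tested.

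**Figure D2:**
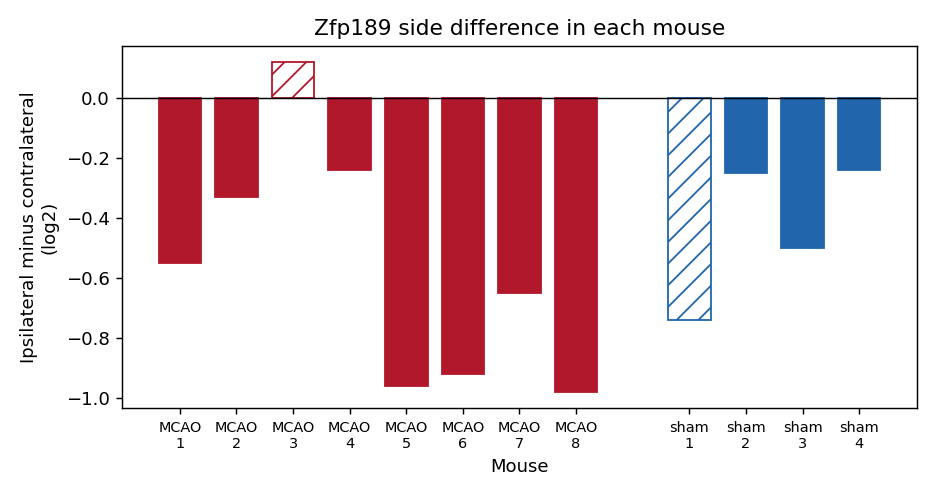
Ipsilateral minus contralateral Zfp189 signal (log2, vertical axis) in each of the 8 MCAO and 4 sham mice. Hatched bars are the mice whose arrays stood apart. Bars point down in 7 of 8 MCAO and 4 of 4 sham mice, to -0.98 in MCAO and to -0.74 in sham mice.

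Between mice, the level was lower after occlusion on both sides of the brain, again as a description because the MCAO arrays were used in the choice. On the ipsilateral side the MCAO mean was 5.06 and the sham mean 5.74 on the 20 arrays, a difference of -0.68 ± 0.24 (SE), or 0.63 of the sham signal. On the contralateral side it was 5.73 in MCAO and 6.07 in sham mice, a difference of -0.35 ± 0.16 (SE), or 0.79 of the sham signal. The ranges overlapped on both sides, so Zfp189 was not among the 0.986% of probe sets whose 7 MCAO values all lay below the 3 sham values ipsilaterally, nor among the 0.599% that did so contralaterally. With all arrays these shares were 0.063% and 0.027%, again without Zfp189. With all arrays the differences were -0.54 ± 0.42 (SE) and -0.41 ± 0.32 (SE). These comparisons share their MCAO arrays with the within-mouse contrast.

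Cell type markers showed no called member by limma in the MCAO side contrast, in any of the 8 lists. At most 1 member of a list had an unadjusted p under 0.05. Over all probe sets 0.0856% were called on all arrays and 0.135% on the 20. An unadjusted p under 0.05 was reached by 918 and 1577 of 22206. Such counts do not set these short lists apart. On the 20 arrays the mean of the 9 neuron markers ran from 9.74 to 9.96 in MCAO ipsilateral, 9.63 to 9.91 in MCAO contralateral, 9.77 to 9.87 in sham ipsilateral and 9.79 to 9.84 in sham contralateral hemispheres. Their side difference was 0.04 ± 0.05 (SD, n = 7) in MCAO and 0.00 ± 0.02 (SD, n = 3) in sham mice. With all arrays the fitted sham side difference had a median of 0.42 over the neuron markers, 8 of 9 positive, and of 0.39 over the astrocyte markers, 7 of 7 positive. Contralaterally, MCAO against sham, the neuron median was then 0.74, against -0.01 on the 20 arrays. Without the 4 arrays, astrocyte markers differed by 0.03 ± 0.09 and 0.07 ± 0.11, and oligodendrocyte markers by 0.06 ± 0.17 and -0.16 ± 0.09, in MCAO and sham mice (SD). Endothelial markers were at 6.09 to 6.29 in MCAO ipsilateral against 5.65 to 6.05 in sham ipsilateral hemispheres, and microglial markers at 5.77 to 6.21 against 5.65 to 6.08. Among the endothelial markers Cldn5 differed most there, by 0.89 ± 0.23 (SE, limma adjusted p = 0.28), and the others by 0.08 to 0.32. Contralaterally Cldn5 differed by 0.68 ± 0.22 (SE). Endothelial markers were at 5.91 to 6.34 in MCAO against 5.83 to 5.94 in sham contralateral hemispheres, and microglial markers at 5.72 to 6.25 against 5.72 to 5.77. The side difference of the endothelial markers in MCAO mice was 0.05 ± 0.17 (SD, n = 7). The part of cell type markers in the Zfp189 values was not tested.

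Of the 4 measured neighbours of Zfp189 on the chromosome 0 passed limma in the MCAO side contrast, and 0 had an unadjusted p under 0.05, with or without the 4 arrays. With all arrays and with the 20, 0.0856% and 0.135% of all probe sets passed, and 918 and 1577 of 22206 had such an unadjusted p. Counts of 0 among 4 genes therefore do not set the neighbours apart. Mrpl50 differed by -0.03 ± 0.10 (SE, limma adjusted p = 0.98) between the sides of the 7 MCAO mice, with single mice from -0.40 to 0.27 and 4 of 7 lower. On all arrays Mrpl50 was at 0.22 ± 0.21 (SE, limma adjusted p = 0.94), with mouse 3 at 1.97. Its signal averaged 7.02 on the 20 arrays, well over background, and in sham mice it differed by -0.06 ± 0.30 (SD, n = 3).

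The next measured gene beyond Mrpl50 was Baat, which codes for an enzyme that conjugates bile acids to amino acids. It was not above background, at a mean of 3.48, and its side difference was -0.08 ± 0.11 (SE, limma adjusted p = 0.94) on the 20 arrays. In sham mice Baat differed by -0.34 ± 0.38 (SD, n = 3), as much as Zfp189 with its -0.33, and by -0.41 ± 0.34 (SD, n = 4) with all arrays, lower in 3 of 4. On the other side, Pgap4, an enzyme that adds a sugar to glycosylphosphatidylinositol anchors, differed by -0.07 ± 0.07 (SE, limma adjusted p = 0.92), and by 0.01 ± 0.04 in sham mice (SD, n = 3). Rnf20, part of the ubiquitin ligase that modifies histone H2B, differed by 0.15 ± 0.10 (SE, limma adjusted p = 0.85), and by -0.09 ± 0.47 in sham mice (SD, n = 3).

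**Figure D3:**
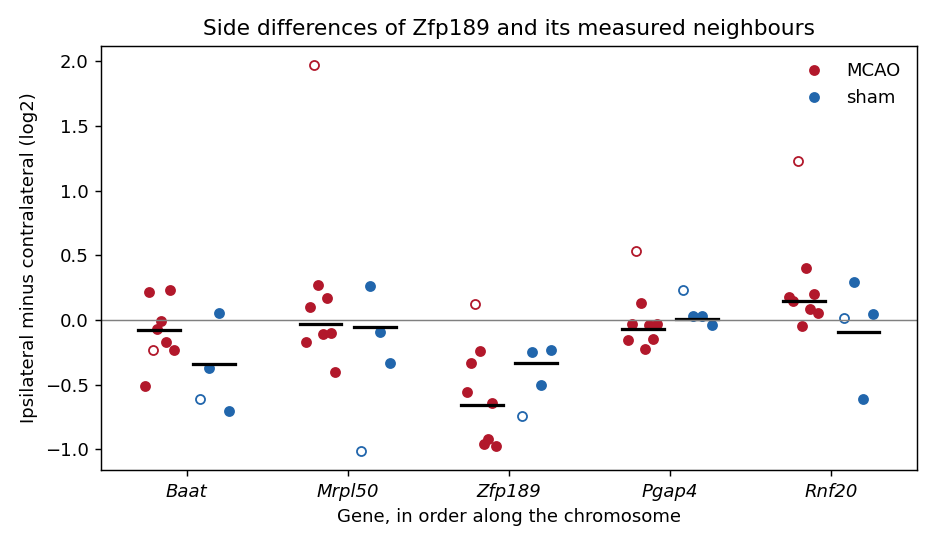
Ipsilateral minus contralateral signal (log2, vertical axis) of Zfp189 and of the measured genes next to it, in order along chromosome 4. Each point is 1 mouse (MCAO left, sham right for each gene), open points are the mice whose arrays stood apart, and black bars are means without them. The Zfp189 means are -0.66 and -0.33, the MCAO means of the other genes lie between -0.08 and 0.15, and their sham means between -0.34 (Baat) and 0.01 (Pgap4).

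Other genes named Zfp with a number were taken as the family, 329 apart from Zfp189, of which 41.6% were above background against 40.6% of all probe sets. This group is made by symbol and includes proteins that are not KRAB repressors. In the MCAO side contrast on all arrays 0 rose and 0 fell at a limma adjusted p under 0.05, against 0.0856% of all probe sets called, and 17 had an unadjusted p under 0.05, against 918 of 22206 probe sets. On the 20 arrays 1 rose and 0 fell, against 0.135% called, and 30 had an unadjusted p under 0.05, against 1577 of 22206. The median of the family was -0.05 on either set of arrays, with 216 and 223 of 329 members negative, where the median of all probe sets was 0.00. In sham mice the family median was -0.04 on all arrays and -0.06 on the 20.

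The member that rose was Zfp36, which is no DNA-binding repressor but an RNA-binding protein that speeds the decay of cytokine mRNAs. It was at 1.10 ± 0.26 (SE, limma adjusted p = 0.3) on all arrays and 1.28 ± 0.15 (SE, limma adjusted p = 0.0033) on the 20. In the ipsilateral hemispheres of the 20 arrays, MCAO against sham, Zfp36 was 2.00 ± 0.20 higher (SE, limma adjusted p = 0.00015) and Zfp648 lower, at -0.92 ± 0.16 (SE, limma adjusted p = 0.034), though Zfp648 was not above background. That contrast called 0.149% of all probe sets on the 20 arrays (0.126% higher and 0.0225% lower) and 0.0045% on all arrays, where 0 members of the family passed.

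At the negative end of the family on all arrays stood Zfp984 (-0.55 ± 0.18 SE), Zfp174 (-0.46 ± 0.17), Zfp947 (-0.46 ± 0.27), Zfp619 (-0.44 ± 0.15) and Zfp92 (-0.43 ± 0.19), each with a limma adjusted p of 0.94 and each not above background. At the positive end, below Zfp36, stood Zfp981 (0.55 ± 0.17), Zfp568 (0.51 ± 0.21), Zfp62 (0.43 ± 0.36) and Zfp770 (0.29 ± 0.14), also with a limma adjusted p of 0.94. Of these, Zfp981 and Zfp568 were not above background. Zfp568 is a KRAB protein that represses a placental transcript of Igf2 in the mouse embryo. Without the 4 arrays these 9 genes had limma adjusted p-values of 0.35 or more, and Zfp62 was at 0.00 ± 0.11. Zfp984 was then at -0.60 ± 0.16 (SE) and negative in 7 of 7 mice, next to -0.66 ± 0.10 (SE) for Zfp189, which was chosen for that value.

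Among the family, 13 members, or 3.95%, had the lower value ipsilaterally in each of the 7 MCAO mice, against 1.22% of all probe sets. Of these, 4 were also lower in the 3 sham mice of the 20 arrays, or 1.22% of the family against 0.14% of all probe sets. They were Zfp109, with means of -0.25 in MCAO and -0.17 in sham mice, Zfp418 (-0.31 and -0.31), Zfp58 (-0.27 and -0.19) and Zfp740 (-0.27 and -0.13). These were named after their values were seen, and no test was made of the count. Of them, Zfp418 was not above background. With all arrays, the sham difference was -0.09 ± 0.17 (SE) for Zfp109 and 0.00 ± 0.24 (SE) for Zfp418, each lower in 3 of 4 sham mice.

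**Figure D4:**
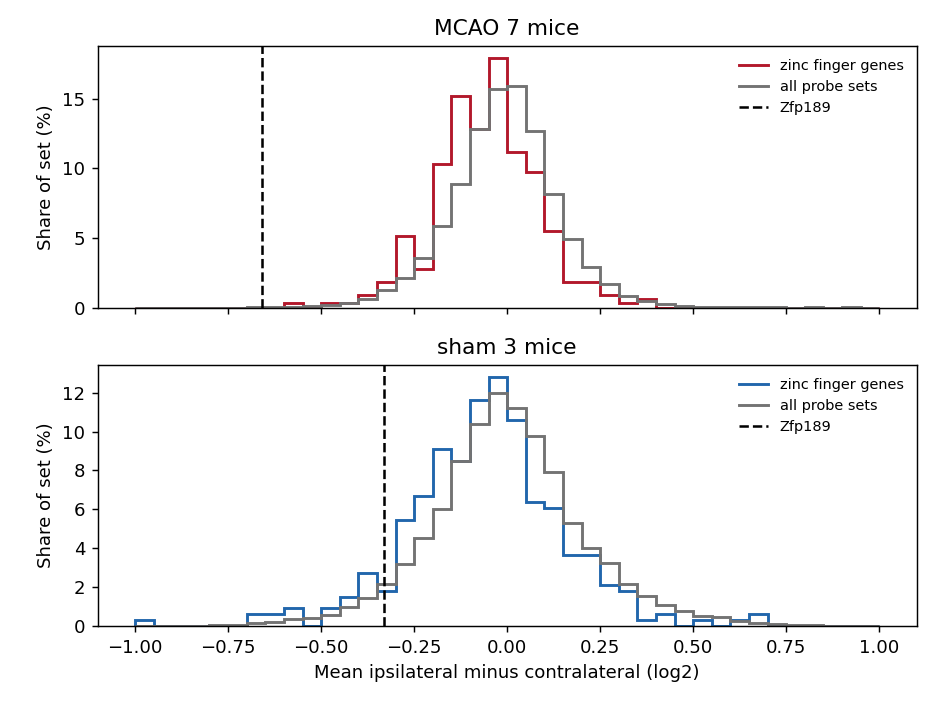
Distribution of mean side differences (log2, horizontal axis, steps of 0.05 between -1 and 1) of the 329 other Zfp genes, in colour, and of all probe sets, in grey, as a share of each set in percent, for 7 MCAO mice (top) and 3 sham mice (bottom). The dashed line is Zfp189, at -0.66 in MCAO and -0.33 in sham mice. Its place in the MCAO panel follows from how the gene was chosen. Zfp36, at 1.28, is beyond the axis.

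For the corepressor machinery that KRAB proteins recruit, the side contrast gave no call. Of 15 measured genes of that list 0 rose and 0 fell at a limma adjusted p under 0.05, on all arrays or on the 20, 0 had an unadjusted p under 0.05, and the median was 0.09 and 0.03. Of all probe sets 0.0856% and 0.135% were called, and 918 and 1577 of 22206 had an unadjusted p under 0.05. Counts of 0 therefore do not set this list apart. Trim28, the scaffold of the complex, was at 0.00 ± 0.15 (SE, limma adjusted p = 1.0) on the 20 arrays but was not above background there. Setdb1, the histone H3 lysine methyltransferase of the complex, was at -0.05 ± 0.10 (SE, limma adjusted p = 0.96). Both genes are named for their role. The smallest p-values of the list on all arrays belonged to Uhrf1, which guides maintenance methylation of DNA (-0.22 ± 0.14 SE), and Cbx5, which codes for the heterochromatin protein HP1 alpha (0.34 ± 0.26 SE), each with a limma adjusted p of 0.94.

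Regulators of CREB were likewise not called, with 0 of 17 measured genes higher and 0 lower on either set of arrays and a median of 0.09 on all and 0.00 on the 20. An unadjusted p under 0.05 was reached by 2 and by 1 of them, against 918 and 1577 of 22206 probe sets. The same shares of all probe sets, 0.0856% and 0.135%, were called, and this count of 0 does not set the list apart either. Creb1 itself, named for its role, was at -0.06 ± 0.10 (SE, limma adjusted p = 0.96) on the 20 arrays. The smallest p-values on all arrays belonged to Sik1, a kinase that keeps CREB coactivators in the cytoplasm (0.35 ± 0.16 SE), and Crtc3, such a coactivator (-0.31 ± 0.15 SE), each with a limma adjusted p of 0.94.

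Well-known CREB target genes were mostly positive in the side contrast. The list was chosen with earlier results of these data known, so its values here are a description. Sik1 stands in this list and in that of the regulators. Of 13 measured, 2 rose and 0 fell on all arrays in limma, where 0.0856% of all probe sets were called, and 13 of 13 were positive, with a median of 0.47. Without the 4 arrays 3 rose and 0 fell, where 0.135% of all were called, with 12 positive and a median of 0.45. The median of all probe sets was 0.0 on either set of arrays. Fos, a subunit of the AP-1 factor, was at 1.83 ± 0.28 (SE, limma adjusted p = 0.0089) on all arrays and 2.13 ± 0.23 (SE, limma adjusted p = 0.0024) on the 20. Nr4a1, an orphan nuclear receptor, was at 1.27 ± 0.21 (SE, limma adjusted p = 0.018) and 1.39 ± 0.20 (SE, limma adjusted p = 0.015).

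Dusp1, a MAP kinase phosphatase, passed on the 20 arrays (0.93 ± 0.14 SE, limma adjusted p = 0.017) and was at 0.86 ± 0.17 on all (SE, limma adjusted p = 0.095). The count of 2 became 0 without MCAO mouse 1 or 8 and 1 without mouse 4 or 7. Without the 4 arrays the count of 3 became 1 without mouse 1, 4, 7 or 8. In sham mice 0 of the 13 were called by limma and 0 had an unadjusted p under 0.05, with medians of -0.07 and 0.00. Of all probe sets 0.0% were called in that contrast, and 1390 and 1220 of 22206 had an unadjusted p under 0.05.

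The genes whose level ran most like that of Zfp189 over the 20 arrays were found by Pearson correlation among 8266 probe sets above background with 1 gene symbol. Both hemispheres of each mouse enter, so the points are not independent, and no p is given. The genes at both ends were ranked on arrays that include those by which Zfp189 was chosen. Further r values and counts from these arrays therefore describe the ranking and are no separate check of it. Arrdc2, an arrestin-domain gene, and Rnpepl1, an aminopeptidase-like gene, had r = 0.82. Dclre1b, a nuclease that protects telomeres, had r = 0.80. Zfp386, another zinc finger gene, and Pnpla2, which codes for adipose triglyceride lipase, had r = 0.78.

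Arrdc2 averaged 5.49 ± 0.41 in MCAO ipsilateral, 5.90 ± 0.43 in MCAO contralateral, 6.03 ± 0.15 in sham ipsilateral and 6.17 ± 0.28 in sham contralateral hemispheres (SD). The ipsilateral value was the lower one in 7 of 7 MCAO and 2 of 3 sham mice. Dclre1b was lower in 7 of 7 MCAO and 1 of 3 sham mice, and Zfp386 in 6 of 7 and 3 of 3. Once group means were removed, r was 0.72 for Arrdc2 and Pnpla2, 0.53 for Rnpepl1, 0.52 for Dclre1b and 0.49 for Zfp386. For the side differences of the 10 mice it ran from 0.51 for Zfp386 to 0.72 for Rnpepl1.

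At the opposite end were Tbc1d30, a gene with a Rab GTPase-activating domain (r = -0.79), and genes known to be induced early after a stimulus. Btg2, an antiproliferative gene, and Ccn1, which codes for a secreted matrix protein, had r = -0.76, and Dusp6, a phosphatase of ERK, had r = -0.73. Sybu, which links cargo to kinesin in axons, had r = -0.74. Btg2 was at 8.15 ± 0.25 in MCAO ipsilateral, 6.85 ± 0.56 in MCAO contralateral, 5.95 ± 0.35 in sham ipsilateral and 5.85 ± 0.32 in sham contralateral hemispheres (SD), an order opposite to that of the Zfp189 means at its ends. With group means removed, r was -0.33 for Btg2, -0.36 for Ccn1 and -0.28 for Dusp6, against -0.58 for Tbc1d30 and -0.65 for Sybu.

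Leaving out the 2 arrays on which Zfp189 was farthest from its median gave r = 0.57 to 0.84 for the 5 most alike and -0.41 to -0.79 for the 5 most opposite, with Sybu at -0.41. Over all 24 arrays the 5 genes most alike had r between -0.50 and 0.06, so the likeness was not seen there, while the 5 most opposite stayed at -0.68 to -0.83.

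**Figure D5:**
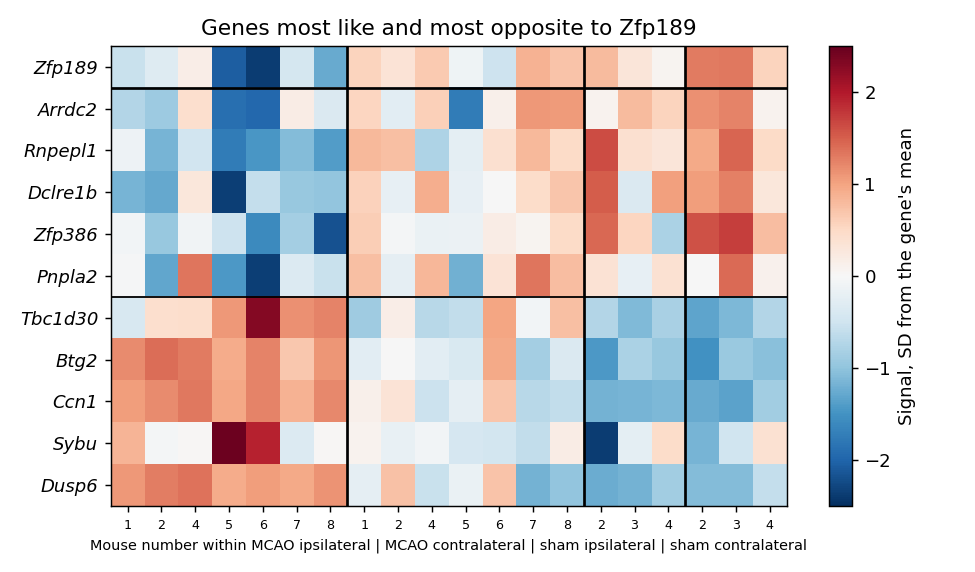
Signal of Zfp189 (top row), of the 5 genes most like it and of the 5 most opposite to it on the 20 arrays, in SD from each gene's mean (colour). Columns are arrays, in blocks of MCAO ipsilateral, MCAO contralateral, sham ipsilateral and sham contralateral. Zfp189 is lowest in MCAO mice 5 and 6 on the ipsilateral side, and the early-induced genes Btg2, Ccn1 and Dusp6 are high across that block.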

How the data were processed

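The authors deposited log2 signals per probe set, for which the submitters' processing notes name Affymetrix Expression Console. No source used here gives its version, background correction or normalization, and the scale was taken to be log2 because of the span of the values. Of 29129 rows, 6923 controls were left out, leaving 22206 probe sets, 19572 with 1 gene symbol, 0 with several and 2634 unnamed here. No filter on signal was applied.

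Side contrasts were fitted with limma 3.58.1 (R 4.3.3) on 24 arrays. Mouse was a fixed block, because the titles tie the hemispheres to animals. On the 20 arrays, hemispheres of 1 mouse correlated at 0.11 to 0.31 in deviations from group means, against a median of -0.04 between mice. Between-mouse contrasts used the 12 arrays of 1 side. Benjamini-Hochberg adjustment ran over all probe sets. The MCAO side contrast was also run on simulated data, with added changes larger than the mean differences of Zfp189. The other contrasts were not simulated.

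The gene and the lists were chosen with earlier results of these data known. Named genes were the 2 nearest measured genes on each side, the 5 most and 5 least correlated with Zfp189, the 5 extremes of the family at each end and, from each other list, called members or the 2 with the smallest p. Others are marked where they stand. A planned search for similar proteins was not run here. Alternatives were quantile normalization, median centring, array weights, eBayes with trend and robust settings, other blocks, a filter on dim probe sets, and leaving out arrays or mice. Combinations without the 4 arrays, and centring on negative controls, were chosen after seeing the data.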

Additional observations from a re-analysis of the deposited data

Results flagged for a closer look

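The Zfp189 signals of MCAO mouse 3, 7.08 on the ipsilateral and 6.96 on the contralateral side, stood far above those of the other 7 MCAO mice of their group. The gap to the nearest mouse was 0.534 of the whole range on the ipsilateral side and 0.585 on the contralateral side. Both were below the background of their own arrays, 7.41 and 7.60, and both arrays are among the 4 that stood apart. Of 9 sets of values examined in this way 2 were picked out. Chance picks about 1 in 20 single sets, but these sets share values, so their count cannot be set against that rate.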

How the results depend on the processing

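The direction of each Zfp189 difference was the same under every setting that gave a value. Without single mice, the MCAO side difference ran from -0.66 to -0.50 on all arrays and -0.73 to -0.61 on the 20, the sham one from -0.50 to -0.33 (limma adjusted p = 0.49 to 1.0) and -0.38 to -0.24 (0.83 to 1.0), and MCAO minus sham from -0.23 to -0.07 and -0.42 to -0.28. MCAO against sham ran from -0.79 to -0.40 and -0.77 to -0.56 ipsilaterally, and from -0.56 to -0.19 and -0.47 to -0.27 contralaterally. Without MCAO mouse 3 the ipsilateral value was -0.79, and without sham mouse 1 the contralateral one was -0.19. MCAO minus sham was -0.04 with quantile normalization. Centring the 20 arrays on negative controls gave -0.60 in MCAO and -0.28 in sham mice. With no replicate block, that is with the pairing of hemispheres ignored, the side differences of -0.56 and -0.43 were unchanged by construction, with SEs of 0.30 and 0.43. Leaving out dim probe sets on all arrays removed Zfp189, so that no value could be had. Signal near background limits every Zfp189 value.

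The count of called zinc finger genes was 0, and 1 without the 4 arrays, with array quality weights, with a random replicate block and without sham mouse 1. It was 1 under every other choice combined with leaving out the 4 arrays, and 0 to 1 without single mice. Called CREB targets, 2 on all arrays, numbered 0 with quantile normalization, 0 with no replicate block, 1 with a random block, 6 with array weights and 0 to 3 without single mice. Without the 4 arrays they numbered 5 after centring on negative controls, 6 without dim probe sets and 1 to 4 without single mice. The counts for corepressors and CREB regulators were 0 under all settings run. The causes of these changes were not tested.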
